A study of Mus musculus and Homo sapiens with 10 samples.

Results

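The regions described here are the H3K9me3 peaks of NIH3T3 cells, an immortalized mouse fibroblast line, that overlap an H3K4me3 peak of the same cells by at least 1 bp. There are 3969 of them among 23795 H3K9me3 peaks (16.7%, 95% interval 16.2 to 17.2), and the other 19826 lie outside H3K4me3. With only the wider 50% of every list the count is 1824. These members were chosen on those 2 lists, so their overlap with H3K4me3 is a description and carries no test. The study mapped the RNA polymerase I (Pol I) factor UBF by chromatin immunoprecipitation and sequencing (ChIP-seq), beside Pol I, RNA polymerase II (Pol II) and histone marks, in mouse fibroblasts and human mammary cells. All 7 mouse lists come from untreated, exponentially growing NIH3T3 cells, a line that may differ from primary fibroblasts. The antibodies were against H3K9me3, H3K4me3, the phosphorylated C-terminal repeat of Pol II, H3K9ac, hyperacetylated H4, UBF1/2 and the largest subunit of Pol I. The 3 human lists and the genomic DNA inputs were not used here.

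Trimethylation of histone H3 at lysine 9 is a mark of silent chromatin. It is written by enzymes such as SUV39H1 and SETDB1, bound by HP1 proteins, and best known over repeats and near centromeres. Trimethylation at lysine 4 of the same histone marks the start of active and poised genes, and lysine 9 is acetylated there instead. The same lysine of 1 histone copy cannot be acetylated and methylated at once. ChIP-seq averages over many cells and alleles, so an overlap of 2 peak lists does not show both marks on 1 nucleosome.

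Each antibody is represented by 1 deposited list of peaks (n = 1), with positions only. No height, score or read count is given, so the depth is unknown, peaks cannot be ranked by strength, and no difference between lists can be set against replicate error. Shares of peaks have exact (Clopper-Pearson) 95% intervals, which cover counting error only, and no test across samples was possible. H3K4me3 was called in 27982 peaks, which were 1685 bp wide in the median, and the median H3K9me3 peak was 1050 bp wide. Positions are on mouse build mm9, as written in the lists, and no gene or sequence was assigned to them here. The labelled cell type cannot be checked against marker genes without an annotation and was taken as given.

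H3K9me3 peaks that overlap H3K4me3 were of ordinary size for the mark, and somewhat wider than those outside it. Their median width was 1187 bp (quartiles 951 and 1622), against 1028 bp (823 and 1350) for the H3K9me3 peaks outside H3K4me3. Most peaks of both groups lay in the same range of widths, but the overlapping group reached farther up. Of its members, 45 of 3969 (1.13%, 0.828 to 1.51) were wider than 5000 bp, against 40 of 19826 (0.202%, 0.144 to 0.275) outside. A wide peak meets another list more often by its size alone. When all H3K9me3 peaks were put in 4 groups by width, 9.56% of the narrowest (277 to 838 bp) and 24.0% of the widest (1397 to 39114 bp) overlapped H3K4me3. These widths were therefore partly set by the choice of members.

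**Figure D1:**
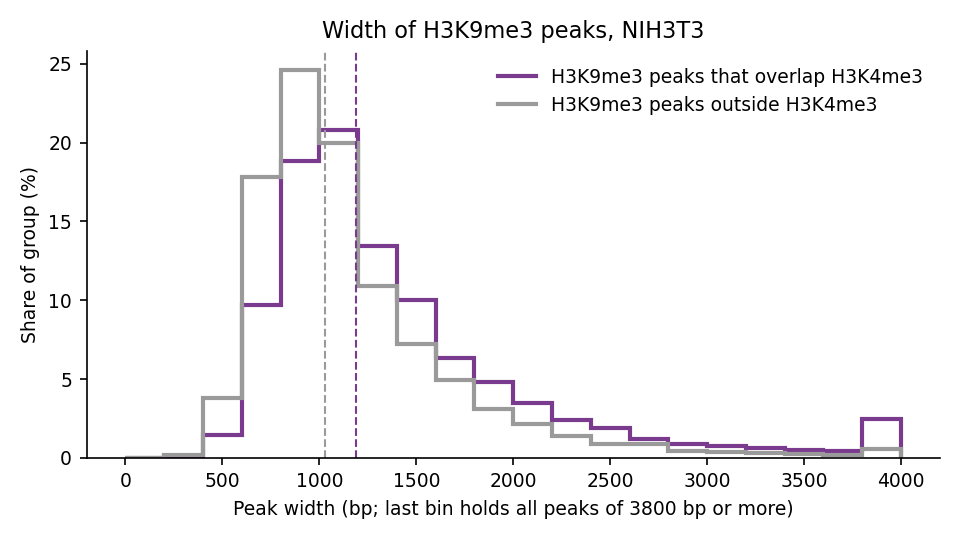
Width of H3K9me3 peaks in bins of 200 bp (x axis, bp) as a share of each group (y axis, %), for the 3969 peaks that overlap H3K4me3 and the 19826 outside it. Dashed lines are the medians, 1187 bp and 1028 bp, and the last bin gathers all wider peaks.

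The typical member was a short H3K9me3 peak within a broad H3K4me3 peak. The H3K4me3 peak that shared most bases with it, called its host, had a median width of 2514 bp (quartiles 1432 and 3729), and the member's width was a median of 49.4% of the host's. H3K4me3 covered 2099 members completely (52.9%, 51.3 to 54.4). A further 1305 members (32.9%) crossed 1 border of the host, and 565 (14.2%) were as wide as the host or wider and spanned it. Both borders of member and host lay within 250 bp of each other in 370 cases (9.32%). Nearly all members, 3879, met a single H3K4me3 peak, 77 met 2 and 13 met 3 or more. In the other direction 3898 H3K4me3 peaks touched a member, of which 171 touched 2 or more, and 3 was the most on any.

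Inside the host, H3K9me3 lay near the centre more often than near an edge. The distance between the 2 centres was divided by the way from the host's centre to its border, so that 0 is the centre and 1 the border, and that way was cut into an inner, a middle and an outer zone of equal length. The median was 0.333. The centre of 1986 members (50.04%, 48.5 to 51.6) lay in the inner zone, that of 971 (24.5%) in the middle zone and that of 451 (11.4%, 10.4 to 12.4) in the outer zone. The remaining 561 (14.1%, 13.1 to 15.3) reached into H3K4me3 from a centre beyond its border, a share that was 6.18% with every H3K9me3 peak set to 500 bp around its centre. Among the 3408 members with their centre inside the host, 58.3% (56.6 to 59.9) lay in the inner zone and 13.2% in the outer. Centres lay within 500 bp of the host's centre in 2255 members (56.8%).

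The other lists were measured in the same way wherever they met H3K4me3. Over hosts of all widths, the inner zone held 64.0% of Pol II peaks (63.3 to 64.7), 81.5% of H3K9ac peaks, 66.1% of H4 hyperacetylation peaks and 76.03% of UBF peaks. Pol I came nearest to H3K9me3, with 56.1% in the inner zone. This order changed with host width. On the widest of 4 groups of hosts (2548 to 41813 bp) H3K9me3 had 56.8% in the inner zone (54.6 to 59.1), against 55.5% of Pol II (54.5 to 56.5) and 54.98% of Pol I (50.8 to 59.1), and these intervals overlapped. Acetylation and UBF stayed above it there, at 77.8% for H3K9ac, 60.2% for H4 hyperacetylation and 74.5% for UBF. A centre beyond the border of H3K4me3 was found in 14.1% of H3K9me3 members, against 1.59% of Pol II, 1.24% of H3K9ac, 3.97% of H4 hyperacetylation, 1.37% of UBF and 0.412% of Pol I peaks. In each of the 4 groups of host width H3K9me3 had the highest share beyond the border, from 30.2% on hosts of 1085 to 1685 bp to 6.18% on the widest. The lists were compared at their own widths, and a narrow peak that meets H3K4me3 cannot be centred far beyond its border. Median widths were 230 bp for Pol I and 683 bp for Pol II peaks, against 1187 bp for members, so this ranking partly rests on width. On hosts of 1085 to 1685 bp 35.6% of members were in the inner zone.

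**Figure D2:**
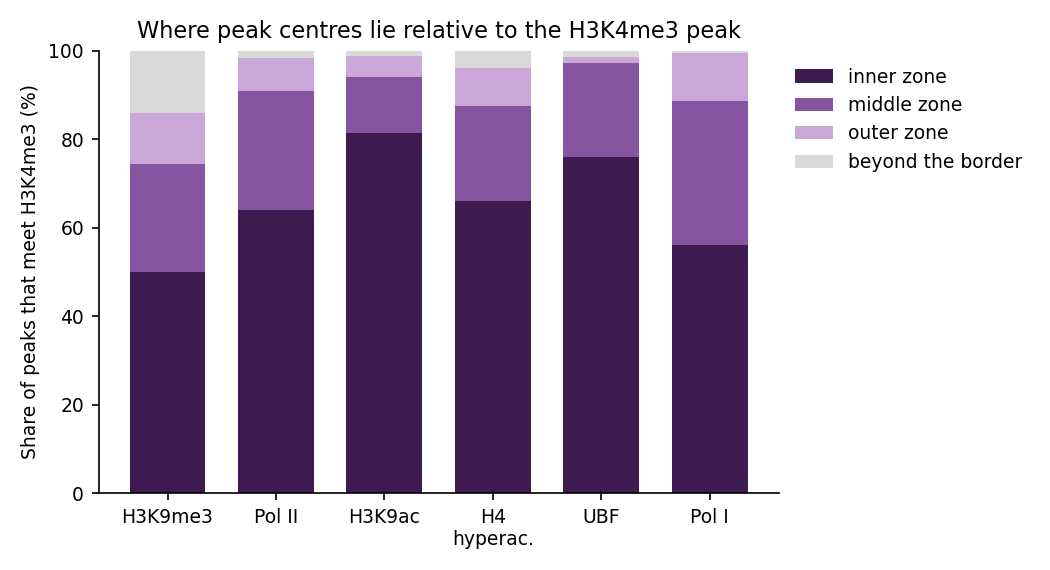
Share of peaks (y axis, %) whose centre lies in the inner, middle or outer zone of the way to the H3K4me3 border, or beyond it, for H3K9me3 and 5 other lists (x axis), counting only peaks that meet H3K4me3. H3K9me3 has 50.04% in the inner zone and, of the 6 lists, the largest share beyond the border, 14.1%. Peaks keep their own widths, which limit how far beyond the border a centre can lie.

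Pol II was present at most of these H3K9me3 peaks. A Pol II peak overlapped 2772 of 3969 members (69.8%, 68.4 to 71.3), against 780 of 19826 H3K9me3 peaks outside H3K4me3 (3.93%, 3.67 to 4.21). Over all H3K9me3 peaks the share was 14.9%, and over all H3K4me3 peaks it was 53.2%. The gap was present in all 4 groups of H3K9me3 width. From narrowest to widest, members had Pol II at 67.1%, 74.9%, 71.3% and 66.7%, and peaks outside H3K4me3 at 2.53%, 2.85%, 3.34% and 7.47%. Part of this gap is set by the choice of members, because 18374 of 30239 Pol II peaks themselves met H3K4me3. So did 24674 of 28308 H3K9ac, 27230 of 41519 H4 hyperacetylation, 1827 of 3704 UBF and 971 of 1409 Pol I peaks. Every comparison below with H3K9me3 peaks outside H3K4me3 has the same limit, which groups of H3K9me3 width do not remove. Where the host held a Pol II peak anywhere, which was so for 3046 members, the member itself touched it in 90.5% of cases (89.4 to 91.5). How often peaks of these widths and places would touch on the same host in any case was not tested. The centres of overlapping Pol II and H3K9me3 peaks were a median of 300.5 bp apart (quartiles 136 and 546), a distance that overlap itself limits.

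Both acetylation marks overlapped H3K9me3 at these sites. H4 hyperacetylation, a mark of open chromatin, met 3756 members (94.6%, 93.9 to 95.3), against 9.24% (8.84 to 9.65) of the H3K9me3 peaks outside H3K4me3. H3K9ac, the modification that competes with H3K9me3 for the same lysine, met 3443 members (86.7%, 85.7 to 87.8), against 1.21% (1.06 to 1.37) outside. The shares over all H3K9me3 peaks were 23.5% for H4 hyperacetylation and 15.5% for H3K9ac, and over all H3K4me3 peaks 87.2% and 84.9%. So, without regard to width, the share of members stood close to that of all H3K4me3 peaks for H3K9ac, and above it for H4 hyperacetylation. The first counts H3K9me3 peaks and the second whole H3K4me3 peaks. Hosts of members were also wider, with a median of 2514 bp against 1685 bp for all H3K4me3 peaks. Comparisons within groups of H3K4me3 width are given below. Even the exact centre of the member was inside an H3K9ac peak in 74.6% of cases (73.2 to 75.9) and inside an H4 hyperacetylation peak in 87.2%. A centre in a gap between 2 acetylation peaks of the host was rare, with 6 members for each mark (0.151%). This share is over all members, while such a gap needs a host with 2 or more separate peaks of the mark. The number of hosts of that kind is not given here.

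**Figure D3:**
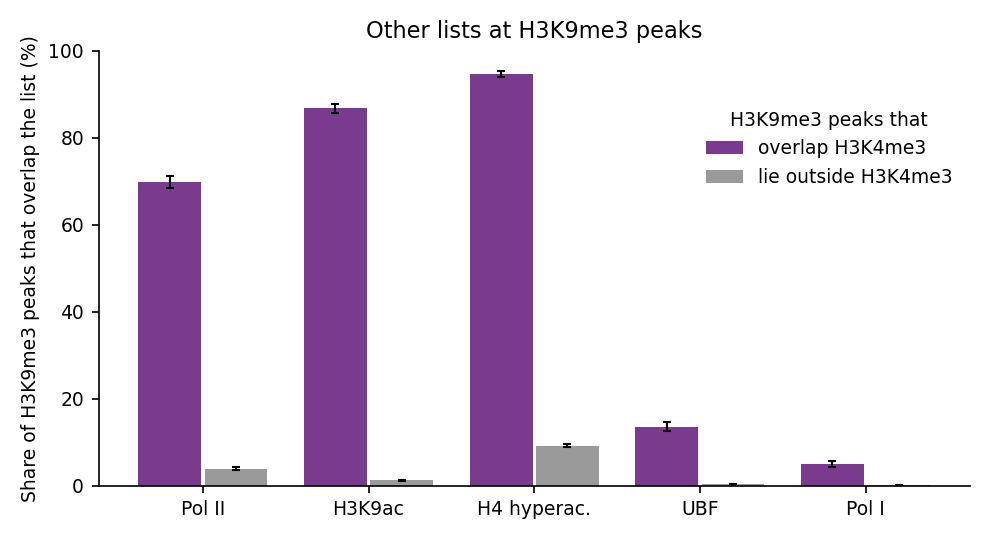
Share of H3K9me3 peaks (y axis, %) that overlap Pol II, H3K9ac, H4 hyperacetylation, UBF and Pol I (x axis), for the 3969 peaks that overlap H3K4me3 and the 19826 outside it, with exact 95% intervals as bars. All 5 lists are higher at the peaks that overlap H3K4me3, from 94.6% against 9.24% for H4 hyperacetylation to 4.91% against 0.126% for Pol I. The choice of members sets part of this contrast, since many peaks of these lists themselves meet H3K4me3.

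UBF, an architectural factor of ribosomal RNA gene chromatin, met 536 members (13.5%, 12.5 to 14.6), against 79 of 19826 (0.398%, 0.316 to 0.496) of the H3K9me3 peaks outside H3K4me3. Pol I, the polymerase of those genes, met 195 members (4.91%, 4.26 to 5.63), against 25 (0.126%, 0.0816 to 0.186) outside. The Pol I share rests on how overlap is counted, and was 1.17% when the centre of the H3K9me3 peak had to lie in the other peak. All H3K9me3 peaks had UBF at 2.58% and Pol I at 0.925%, and all H3K4me3 peaks had them at 6.41% and 3.26%. Nearly all members with UBF also had Pol II and acetylation: 532 of 536 had Pol II (99.3%) and 529 had both acetylation marks (98.7%), against 65.2% and 83.02% of the members without UBF. Members with Pol I had Pol II at 190 of 195 (97.4%), and 62 of them also had UBF (31.8%, 25.3 to 38.8), against 12.6% (11.5 to 13.7) of members without Pol I. These comparisons were not split by host width. The widest of the 4 groups of hosts held 447 of the 536 members with UBF and 131 of the 195 with Pol I. All members on those hosts had Pol II at 88.9%, both acetylation marks at 97.9% and UBF at 22.8%. Of the 612 members whose host held UBF, 536 touched it (87.6%, 84.7 to 90.1). For those 536 the 2 centres were a median of 283.5 bp apart, a distance that overlap itself limits. How often peaks of these widths would touch by size alone was not tested. Pol I peaks, which are narrow, were touched by 192 of the 283 members whose host held one (67.8%, 62.1 to 73.3).

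Among the combinations of the 5 lists, 1 dominated. Pol II with both acetylation marks was present at 2613 members (65.8%, 64.3 to 67.3), against 11.3% of all H3K9me3 peaks and 50.7% of all H3K4me3 peaks. The last share counts whole H3K4me3 peaks, which were narrower than the hosts of members. In 4 groups of H3K4me3 width, narrowest first, H3K4me3 peaks with H3K9me3 had all 3 at 26.4%, 36.7%, 76.1% and 97.8%. Those without H3K9me3 had them at 7.75%, 27.6%, 69.7% and 93.3%. Of the 2613 members, 1961 had neither UBF nor Pol I, 468 had UBF, 127 had Pol I and 57 had both. Those 57 are 1.44% of all members, and 0.24% of all H3K9me3 peaks had all 5 lists. The next pattern was acetylation without Pol II: 758 members had H3K9ac and H4 hyperacetylation and none of the other 3 lists, and 263 had H4 hyperacetylation alone. H3K9ac alone was found at 45 members and Pol II alone at 25. None of the 5 lists was present at 122 members (3.07%, 2.56 to 3.66), against 73.9% of all H3K9me3 peaks. Their median width was 1033 bp, and 80 of them crossed a border of the host.

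Over hosts of all widths, the place of the member within its host went with what else was there. Members with their centre in the inner zone overlapped Pol II at 84.7% (83.03 to 86.2), those in the middle zone at 73.02%, those in the outer zone at 51.4% and those centred beyond the border at 26.6% (22.9 to 30.4). UBF followed the same order, at 19.4%, 12.9%, 4.66% and 0.713%. H3K9ac changed less, at 90.5%, 88.6%, 83.6% and 72.7%, and H4 hyperacetylation stood at 96.9%, 95.7%, 93.3% and 85.7%. Pol I, at 6.85%, 4.33%, 1.55% and 1.78%, did not keep the order in the last 2 places. Pol II, acetylation and UBF peaks lie near the middle of H3K4me3 themselves, and their part in this order was not tested. The hosts differed in the same order. Pol II was present anywhere on the host for 84.9% of inner, 76.9% of middle, 72.3% of outer and 51.2% of beyond-border members, and the median host widths were 2789, 2703, 2305 and 1580 bp. On the widest hosts nearly all had Pol II somewhere, at 98.9%, 97.7%, 95.5% and 95.04%, while direct overlap with Pol II ranged over 98.5%, 92.7%, 58.9% and 34.7%. UBF anywhere on those hosts kept the order, at 30.9%, 25.3%, 19.8% and 3.31%.

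**Figure D4:**
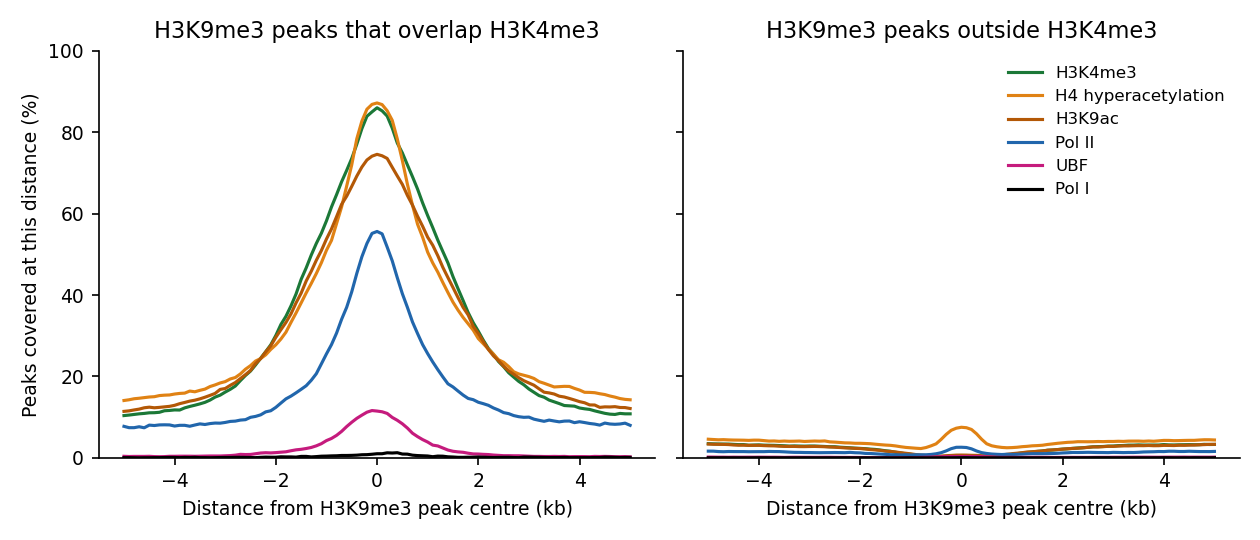
Share of H3K9me3 peaks (y axis, %) with each list present at a given distance from the H3K9me3 peak centre (x axis, kb, in steps of 100 bp), for the 3969 peaks that overlap H3K4me3 and the 19826 outside it. At the centre of the overlapping peaks H4 hyperacetylation stands at 87.2%, H3K9ac at 74.6% and Pol II at 55.6%, and these 3 lists are highest there.

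Over hosts of all widths, members wholly inside H3K4me3 and members that spanned it were different in their marks. Of the 2099 members inside, 92.5% (91.3 to 93.6) had Pol II, 98.95% had H3K9ac, 99.3% had H4 hyperacetylation and 22.8% had UBF. The 565 that spanned their host had Pol II at 54.7% (50.5 to 58.8), H3K9ac at 54.2% (49.9 to 58.3) and UBF at 4.25%, while H4 hyperacetylation remained at 89.6% (86.7 to 92.0). The 1305 that crossed a border had Pol II at 39.9%, H3K9ac at 81.2% and UBF at 2.61%. The hosts of these groups differed in size, with medians of 3305 bp for members inside, 823 bp for those that spanned and 1792 bp for those that crossed. On the narrowest hosts (243 to 1084 bp) Pol II anywhere on the host went the other way. It was there for 4 of 23 members inside (17.4%, 4.95 to 38.8) and 207 of 411 that spanned (50.4%, 45.4 to 55.3). On hosts of 1085 to 1685 bp the intervals overlapped, at 62.6% (51.9 to 72.6) and 54.2% (42.9 to 65.2). H3K9ac anywhere on the host was higher inside in both groups. The intervals overlapped on the narrowest hosts, at 17 of 23 (73.9%, 51.59 to 89.8) and 193 of 411 (47.0%, 42.0 to 51.91). On hosts of 1085 to 1685 bp they were apart, at 87.9% (79.4 to 93.8) and 55.4% (44.1 to 66.3). In the third group of host width both lists were higher inside, with intervals apart. Pol II stood there at 90.6% (87.4 to 93.3) against 69.6% (55.9 to 81.2), and H3K9ac at 99.5% against 83.9%. On the widest hosts 15 members spanned, and the Pol II intervals overlapped while those of H3K9ac did not.

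Seen from the H3K4me3 peaks, H3K9me3 went with width. The 3898 H3K4me3 peaks with H3K9me3 had a median width of 2422 bp (quartiles 1388 and 3594), against 1611 bp (1065 and 2396) for the 24084 without. From the narrowest to the widest of the 4 H3K4me3 width groups, H3K9me3 was present at 10.2%, 7.71%, 11.5% and 26.3%, so that the narrowest group stood above the second. The comparisons that follow were therefore made within these groups, which run from 243 to 1084, 1085 to 1685, 1686 to 2547 and 2548 to 41813 bp.

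Pol II was commoner at H3K4me3 peaks with H3K9me3 in every width group, and the gap was widest in the narrowest. In the narrowest group 41.01% (37.4 to 44.7) of those with H3K9me3 had Pol II, against 11.9% (11.1 to 12.8) of those without. The second group stood at 44.2% against 30.8%, the third at 77.8% against 70.5% and the widest at 97.9% against 93.4%. The intervals overlapped in none of these 4 groups. With 10 finer groups, Pol II was higher with H3K9me3 in all 10, but the intervals overlapped in 3 of them, the fifth, the sixth and the eighth. The narrowest (243 to 794 bp) had Pol II at 181 of its 377 H3K4me3 peaks with H3K9me3 (48.01%, 42.9 to 53.2), against 181 of 2436 without (7.43%, 6.42 to 8.54). On numbered chromosomes and X alone, which hold 330 of the 377, those shares were 48.8% and 7.45%.

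The 2 acetylation marks differed in direction in the narrowest groups of H3K4me3 peaks, and for H3K9ac this held less well with finer groups. In the narrowest group H4 hyperacetylation was higher with H3K9me3, at 86.2% (83.5 to 88.7) against 62.7% (61.5 to 63.9). H3K9ac was lower with H3K9me3 in the same group, at 52.2% (48.5 to 56.0) against 58.8% (57.5 to 60.0). The second group repeated this, with H4 hyperacetylation at 92.8% against 85.5% and H3K9ac at 77.9% (74.2 to 81.4) against 84.4% (83.5 to 85.3). In the third group H3K9ac stood at 96.03% against 97.8%, and in the widest group both marks were above 99.7% with and without H3K9me3. Over all widths together H3K9ac was higher with H3K9me3, at 87.3% (86.2 to 88.3) against 84.5% (84.01 to 84.9). The widest group made up 1840 of the 3898 H3K4me3 peaks with H3K9me3, against 5152 of the 24084 without. On numbered chromosomes and X the lower H3K9ac remained in the narrowest group, at 52.8% (48.8 to 56.8) against 58.7% (57.5 to 60.0), and in the second, at 77.9% against 84.4%. In the third the intervals then overlapped, at 96.4% (94.9 to 97.6) and 97.7% (97.3 to 98.1). With the 10 finer groups on all chromosomes, H3K9ac was lower with H3K9me3 in 9, but the intervals were apart in only 2 of them. One was the third group, at 61.7% (54.6 to 68.4) against 71.9% (70.1 to 73.6), and the other the sixth, at 92.01% (88.3 to 94.9) against 95.98% (95.1 to 96.7). In the narrowest, which holds 377 of the 712 peaks with H3K9me3 in the narrowest of the 4 groups and 2436 of the 6286 without, H3K9ac stood at 45.9% (40.8 to 51.1) against 50.6% (48.6 to 52.6). H4 hyperacetylation was higher with H3K9me3 in all 10, with the intervals apart in the 4 narrowest.

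UBF and Pol I were commoner with H3K9me3 at the ends of the width range. In the widest group UBF was present at 25.6% (23.6 to 27.7) of H3K4me3 peaks with H3K9me3, against 14.8% (13.9 to 15.8) of those without, and Pol I at 10.8% against 6.09%. In the narrowest group the shares were 4.21% (2.86 to 5.96) against 0.334% (0.207 to 0.51) for UBF, from 30 and 21 peaks, and 2.81% against 0.557% for Pol I, from 20 and 35. In the 2 groups between them the intervals of UBF overlapped, at 1.48% against 1.10% and 6.57% against 6.06%.

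**Figure D5:**
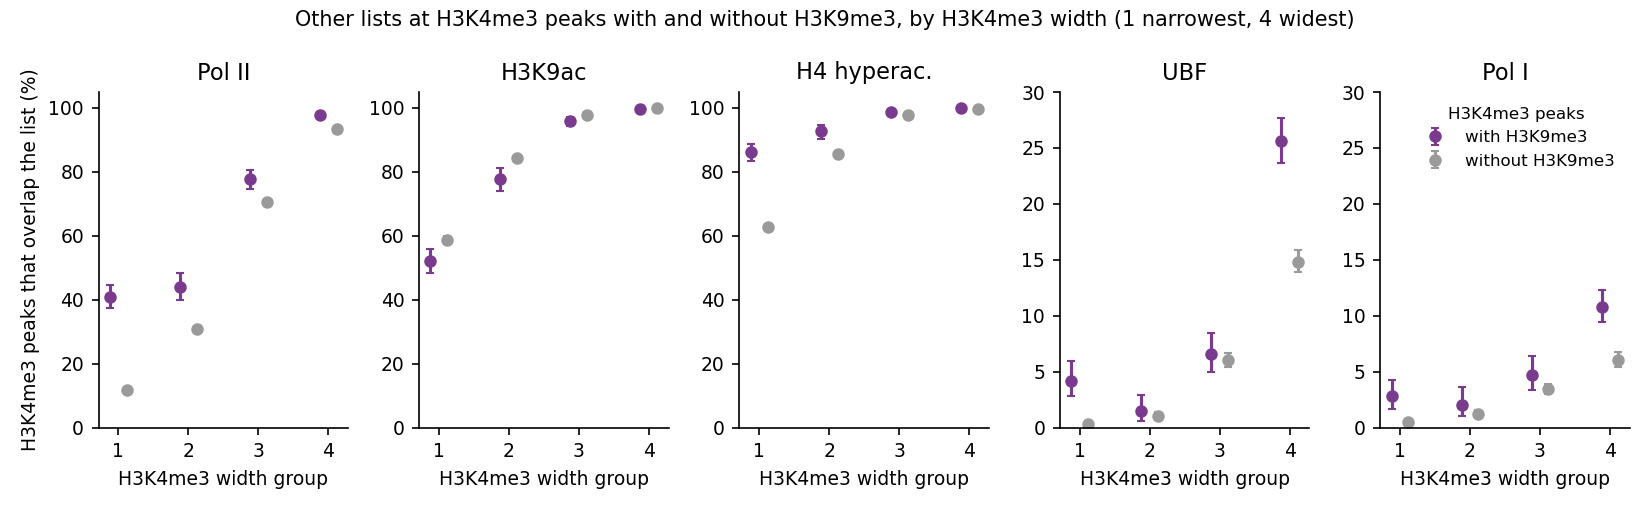
Share of H3K4me3 peaks (y axis, %) that overlap Pol II, H3K9ac, H4 hyperacetylation, UBF or Pol I, with and without H3K9me3, in 4 groups of H3K4me3 width (x axis, narrowest to widest), with exact 95% intervals. The UBF and Pol I panels have a y axis that ends at 30%. In the narrowest group Pol II stands at 41.01% against 11.9%, and H3K9ac at 52.2% against 58.8%.

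Single regions show these arrangements. The 10 widest members that overlap all 5 other lists lay, with 1 exception, in the inner zone of hosts of 3085 to 7961 bp. The widest, on chromosome 17 from 39979446 to 39986068 (6622 bp), nearly coincided with its host of 6278 bp. Peaks of 6077 bp for Pol II, 6010 bp for H3K9ac, 6019 bp for H4 hyperacetylation and 6865 bp for UBF had nearly the same extent. The genomic DNA inputs were not used, so whether these lists exceed the input there was not tested. The next widest of these members was on chromosome 15, from 61817245 to 61820276 (3031 bp), against a median of 1289 bp for members with all 5 lists. It lay wholly inside an H3K4me3 peak of 7245 bp, with a UBF peak of 3268 bp and a Pol I peak of 271 bp over it. On chromosome 4 a member from 120241366 to 120243709 (2343 bp) lay inside an H3K4me3 peak of 4518 bp. Pol II (2217 bp), H4 hyperacetylation (2407 bp) and UBF (2362 bp) had almost the same extent there. The exception lay on chromosome 11, from 100829382 to 100831921, in the middle zone of a host of 11597 bp.

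The widest members of all were unlike the typical one. The widest ran over 39114 bp of chromosome 9 from 2999823 to 3038937. Its H3K4me3 host (38928 bp) and its Pol II (38691 bp), H3K9ac (38914 bp) and H4 hyperacetylation (38902 bp) peaks had nearly the same borders. Without the genomic DNA inputs, whether these 5 lists exceed the input there was not tested. Of the 10 widest members, 4 lay on chromosome 6 between 47596551 and 47719647, with widths of 10626, 29780, 18391 and 14196 bp. All 4 spanned a narrower H3K4me3 peak and overlapped Pol II and both acetylation marks. None of the 10 overlapped UBF, and 2 overlapped Pol I. The widest member centred beyond its host was on chromosome 12, from 114009433 to 114023171 (13738 bp), with an H3K4me3 peak of 1076 bp near its end and Pol II but neither acetylation mark. The widest member without any of the 5 lists, on chromosome 2 from 32326607 to 32329836 (3229 bp), crossed a border of an H3K4me3 peak of 1704 bp.

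At the limit of the rule there were peaks on both sides. The 5 smallest overlaps with H3K4me3 on numbered chromosomes and X were 2, 7, 8, 9 and 10 bp, and the 5 smallest gaps of peaks left out were 1, 1, 3, 5 and 6 bp. Within 100 bp of the limit there were 73 members and 88 peaks left out. None of the 5 members or of the 5 peaks left out nearest the limit overlapped Pol II, UBF or Pol I, while 3 of those members and 2 of those left out overlapped H4 hyperacetylation. H3K9me3 peaks that missed H3K4me3 by up to 1000 bp numbered 786, of which 37.4% (34.0 to 40.9) had H4 hyperacetylation, 10.4% H3K9ac and 8.27% Pol II. In those farther away the shares were 8.07%, 0.825% and 3.76%. On the other side of the limit, members centred beyond the border of their host had these marks at 85.7%, 72.7% and 26.6%. Those members reach into H3K4me3 by the rule and the 786 peaks do not, so this difference is partly set by the choice. The same members were also wider, with a median of 1727 bp, against 1028 bp for all H3K9me3 peaks outside H3K4me3.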

How the data were processed

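The deposited files are lists of called ChIP-seq peaks, 1 per antibody, with chromosome, start and end, per the file headers. The list of Pol I peaks has no header and was read from its first line. The submitters' processing notes name CASAVA 1.8.2, BWA, Picard, mm9 and hg19, with no role for each. Not given in the sources used here are the peak caller, its threshold, its filters and whether replicates were pooled. The design names 2 biological replicates of UBF, and 1 list was used. A caller's threshold sets the width and number of peaks, and hence every share reported.

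Width is end minus start, and whether positions count from 0 or 1 is not given. Overlap meant at least 1 shared bp. Shares were computed in Python 3.11.15 with scipy 1.17.1 (exact binomial intervals), with peaks as units, which are not independent replicates. Width groups are quartiles. The overlap, position and gap code was tested on 3000 simulated peaks, where all 2100 planted overlaps were recovered. The members, comparisons and width groups were chosen with earlier results of these data known. Regions are named by width, within each position class, among those with all or none of the 5 other lists, and at the limit of the rule. The 10 widest of all members, the 10 finer width groups and their counts, the counts on numbered chromosomes and X by width, and the position class by placement were added after the values were seen. No mm9 genome or annotation was used here.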

Additional observations from a re-analysis of the deposited data

How the results depend on the processing

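No paired analysis was possible because each antibody has 1 list, and no replicate could be left out for the same reason. Of 81 alternative values, 48 stayed within the interval of the reported value (or, for the count, within 1.5 times). The other 33 follow. The count of members fell to 1824 with the wider 50% of every list. Pol II stood at 60.6% with at least 50% of the H3K9me3 peak covered, 63.8% with the H3K9me3 centre inside the other peak, 72.8% in the wider 50% and 68.03% with H3K9me3 peaks set to 500 bp. In the same 4 settings H3K9ac stood at 85.4%, 85.1%, 91.1% and 85.5%, and Pol II with both acetylation marks at 58.7%, 60.4%, 70.3% and 63.99%. Pol II with both acetylation marks was 72.9% when they were counted anywhere on the host, a setting chosen after seeing the data. H4 hyperacetylation was 93.3% with 50% covered, and UBF was 14.7% in the wider 50%. Pol I fell to 0.0902% with 50% covered, 1.17% by centre and 2.89% at 500 bp, and the median Pol I peak is 230 bp wide. The inner zone held 58.5% with 50% covered, 58.2% by centre and 54.6% at 500 bp. The outer zone held 13.2% by centre and 12.4% at 500 bp. Centres beyond the border were 0.752% with 50% covered, 0.146% by centre, 16.8% with peaks less than 1000 bp apart merged and 6.18% at 500 bp. The settings by coverage and by centre leave most such members out by construction. The median width was 1139 bp with 50% covered, 1144 bp by centre, 1450 bp in the wider 50%, 1234 bp merged and 500 bp when set so. Leaving out contigs and Y, peaks over 5000 bp (also chosen after seeing the data) or taking the host with the nearest centre moved none of the values they were run on past these limits. The depth behind the lists is unknown, so a list's absence at a member may be a missed peak.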

Other observations

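H3K9me3 peaks that overlap H3K4me3 were unevenly spread over the chromosomes. They made up 29.6% of the H3K9me3 peaks on chromosome 11 (27.4 to 31.9, 496 of 1675), against 6.47% on the X chromosome (4.59 to 8.81, 37 of 572). H3K4me3 peaks carried H3K9me3 at 19.9% on chromosome 11 and at 6.15% on X. Among members, Pol II was commonest on chromosome 19, at 76.7% of 133, and least common on chromosome 13, at 55.9% of 93. On unplaced contigs and chromosome Y, 150 of 229 H3K4me3 peaks (65.5%, 59.0 to 71.6) had H3K9me3, and 54.8% of the 135 members there overlapped Pol II.

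Members were mostly solitary. The median gap to the next H3K9me3 peak was 15537 bp, against 12726 bp for the H3K9me3 peaks outside H3K4me3, and another H3K9me3 peak lay within 5000 bp of 29.7% of members (28.3 to 31.2), against 37.9% (37.3 to 38.6). Of the 2831 windows of 100000 bp that held a member, 2142 held 1 and 63 held 4 or more. The fullest, on chromosome 8 from 19800001, held 9 members among 15 H3K9me3 peaks, of which 8 had Pol II, 9 H4 hyperacetylation, 1 Pol I and none UBF. A window on chromosome 17 from 35100001 held 8 members among 9 H3K9me3 peaks, and windows on chromosome 11 from 102200001 and from 120400001 held 7 of 7 each. On chromosome 5 from 14900001, 7 members lay among 33 H3K9me3 peaks.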
